A study of Arabidopsis thaliana with 2 samples.

Results

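The chloroplast genes described here are those that build the organelle's own gene-expression machinery, or serve other functions, rather than encoding subunits of the photosynthetic complexes. They were chosen by a rule on annotation alone, set with earlier results of these data known. It took chloroplast genes with their own probe set whose symbol does not begin with psa, psb, pet, ndh or atp and is not rbcL. The rule gave 26 of the 69 chloroplast genes measured and of the 13355 genes in all: 4 RNA polymerase genes, 8 genes of the small and 7 of the large ribosomal subunit, and 7 with other functions. Of the 26, 24 passed the filter on signal, a mean over both arrays of at least 192, and rpoB and rps14 did not.

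Whole Arabidopsis thaliana seedlings of 2 genotypes were compared, wild-type Columbia-0 and OE-N6, a transgenic line overexpressing NHRGP (AT4G16790). Both were 2 weeks old and had grown at 22 °C on diluted MS medium with 2% sucrose, with 16 h of light at 100 µmol per square metre and second, and 8 h of dark. No treatment set the groups apart. The sources used here do not give the promoter that drives the transgene, the number of seedlings per extract or other lines of the same construct. Each genotype was read on 1 Affymetrix ATH1 array from 6 µg of total RNA, so no difference below has a replicate check. On the wild-type array the target's signal was 91.1, under the floor of 111 to which low values were raised, and on the OE-N6 array it was 5171, at least 46.4-fold higher.

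Chloroplasts keep a small genome of bacterial origin and transcribe it with more than one enzyme. The plastid-encoded polymerase resembles the bacterial enzyme, is built from the products of rpoA, rpoB, rpoC1 and rpoC2, and needs sigma factors from the nucleus. A phage-type polymerase, encoded in the nucleus, also transcribes plastid genes and is known for reading the rpoB operon and accD. Plastid ribosomes combine chloroplast-encoded and nuclear-encoded proteins. Transcripts of neighbouring genes are often made as one long RNA and then cut.

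All 24 genes that passed the filter had a higher signal on the OE-N6 array than on the wild-type array, but cemA and ccsA fell just below 0 under quantile and loess scaling. Above 0 lay 46.8% of all 5862 genes that passed, and 65.1% of the 175 nuclear genes with a mean signal of 5000 or more. The median log2 ratio of OE-N6 over wild type was 0.30 for the 24 genes, against -0.02 over all genes. The differences were small. A log2 ratio of at least 0.32 was found in 11 of the 24, and in 10.4% of all genes. At least 1.5-fold higher were 5 of the 24 and 2.44% of all genes, and at least 2-fold 0 of the 24 and 0.546% of all genes. A log2 ratio of -0.32 or less was found in 0 of the 24 and in 12.1% of all genes. These 24 genes share 1 genome and many share transcripts, so they are not independent values. In whole seedlings, more chloroplast-rich cells and more chloroplast RNA per cell cannot be told apart.

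Other probe sets on the same arrays show how far such ratios vary between probe sets. For 41 genes read by more than one probe set, the median difference in log2 ratio within the brightest pair was 0.19. The 90th percentile was 0.57 and the largest difference 0.73. Both probe sets of a pair read the same RNA on the same arrays. These differences therefore leave out variation between arrays and between plants, and a ratio above them is not shown to exceed that variation. Of the 24 genes 20 lay above 0.19, as did 21.2% of all genes. Each of the 26 genes has a single probe set, so none could be checked against another. RNA spikes added at labelling had a mean log2 ratio of 0.10 ± 0.18 (SD over 22 probe sets), and hybridisation spikes 0.09 ± 0.17 (SD over 18). The signal of the 3' over the 5' probe set, a sign of RNA quality, was higher in OE-N6 for 5 of 6 control pairs, with log2 differences from -0.20 to 0.39. The part of spikes and RNA quality in the chloroplast values was not tested.

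**Figure D1:**
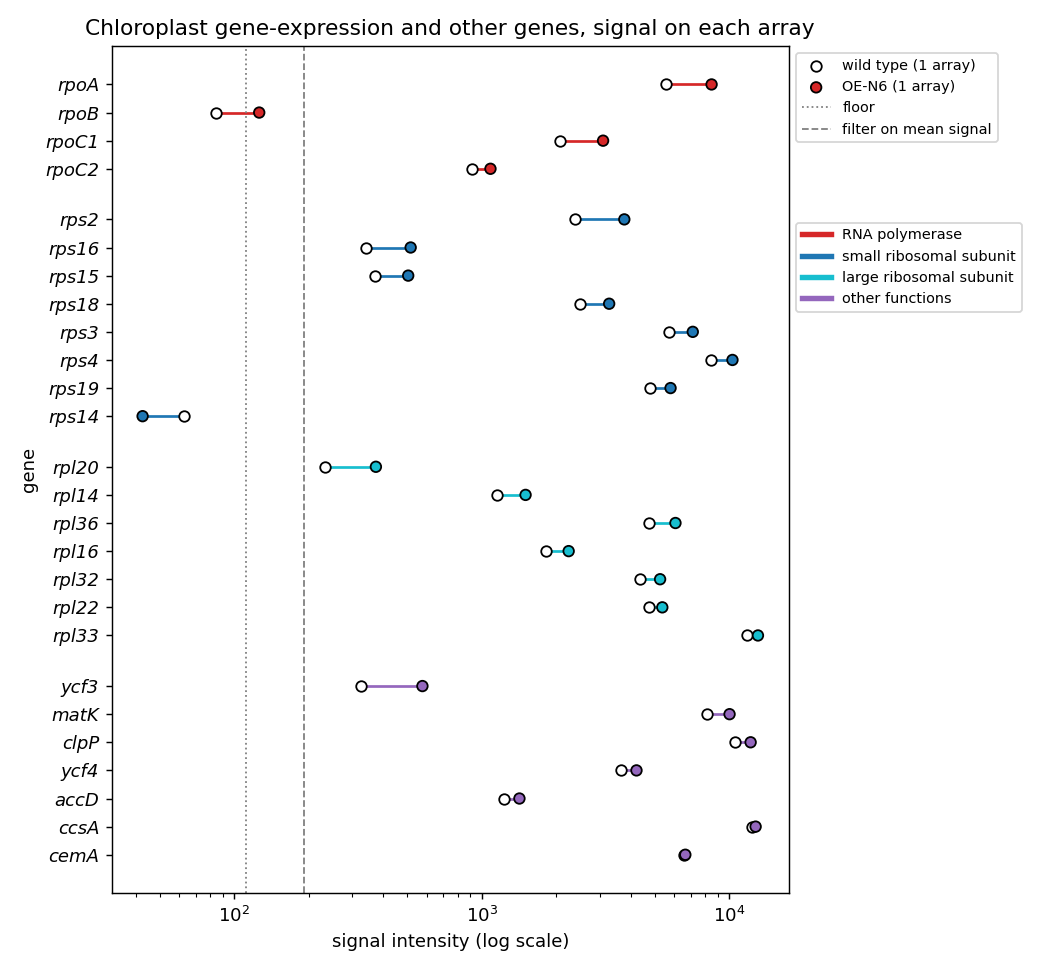
Signal intensity (log axis) of the 26 genes on the wild-type array (open circles) and the OE-N6 array (filled circles), coloured by class, with the floor and the filter as vertical lines. In 25 of 26 genes the OE-N6 circle lies to the right, and rps14, under the floor on both arrays, is the exception.

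The polymerase genes had the highest median of the classes, 0.57 over the 3 that passed. The gene rpoA encodes the alpha subunit, on which the enzyme assembles. Its signal was 5539 on the wild-type array and 8474 on the OE-N6 array, 1.53-fold higher. The signal of rpoC1, which encodes the beta' subunit, went from 2076 to 3090, a 1.49-fold difference. For rpoC2, which encodes the beta'' subunit, the signals of 911 and 1085 were closer, 1.19-fold apart. The pair rpoC1 and rpoC2 lies in 1 operon, yet their log2 ratios of 0.57 and 0.25 differed by more than probe sets of 1 gene did at the median. The difference was smaller than the 90th percentile of such pairs of probe sets. The beta subunit gene rpoB, first in that operon, had a signal of only 84.4 on the wild-type array, under the floor, and 126 on the OE-N6 array. Its ratio is therefore a bound of at least 1.13-fold, and the log2 ratio without the floor was 0.58. Entering rpoB at its bound lowered the class median to 0.41.

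The small-subunit ribosomal protein genes came next, with a median of 0.39 over the 7 that passed and a range from 0.28 to 0.66. Each encodes a structural protein of the subunit that decodes messenger RNA. The highest was rps2, whose signal went from 2385 to 3765, 1.58-fold higher. The gene rps16 went from 340 to 516, which is 1.52-fold. Both lie among the 5 genes past 1.5-fold. The dim rps15 had 370 and 505, a log2 ratio of 0.45, and rps18 had 2487 and 3270, a log2 ratio of 0.39. The 3 bright genes of the class sat close together: rps3 at 0.32 (5690 and 7115), rps4 at 0.28 (8460 and 10291) and rps19 at 0.28 (4768 and 5787). Of these rps3 lay on the edge of the count at 0.32. The signals of rps14 were 62.6 and 42.7, both under the floor, so no ratio is given for it.

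Large-subunit genes, whose products support the site of peptide bond formation, had a median of 0.31 over 7 genes. Here 1 dim gene stood above the rest. The signal of rpl20 went from 234 in the wild type to 374 in OE-N6, 1.60-fold higher and second among the 24. The other 6 lay between 0.14 and 0.39 on the log2 scale. In that group rpl14 (1151 and 1503) and rpl36 (4746 and 6057) reached 0.39 and 0.35, rpl16 (1815 and 2244) 0.31 and rpl32 (4359 and 5251) 0.27. The lowest were rpl22, with 4758 and 5360, and rpl33, with 11801 and 13041, at 0.17 and 0.14. The polymerase and small-subunit medians differed by less than 0.19, as did the small- and large-subunit medians.

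The 7 genes with other functions had the lowest median, 0.21, and the widest range. Both ends of the whole set lie here. The gene ycf3, whose product helps assemble photosystem I, went from 326 in the wild type to 576 in OE-N6, which is 1.77-fold and the highest of the 24. A second assembly factor of the same complex, ycf4, had 3639 and 4216, a log2 ratio of 0.21. The group II intron maturase matK, which acts in splicing of plastid transcripts, had 8131 and 10017, a log2 ratio of 0.30.

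Among the remaining genes of this class the signals were closer. The protease subunit gene clpP went from 10516 to 12185, a log2 ratio of 0.21. The acetyl-CoA carboxylase subunit gene accD, needed for fatty acid synthesis, had 1235 and 1420, a log2 ratio of 0.20. The cytochrome c maturation gene ccsA had 12336 and 12762, 1.03-fold apart. For cemA, an envelope membrane protein gene, the signals of 6537 and 6639 were 1.02-fold apart. Both are below the 0.19 yardstick, and their sign turned under quantile and loess scaling. Apart from ycf3, no gene of this class had a log2 ratio of 0.32 or more.

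**Figure D2:**
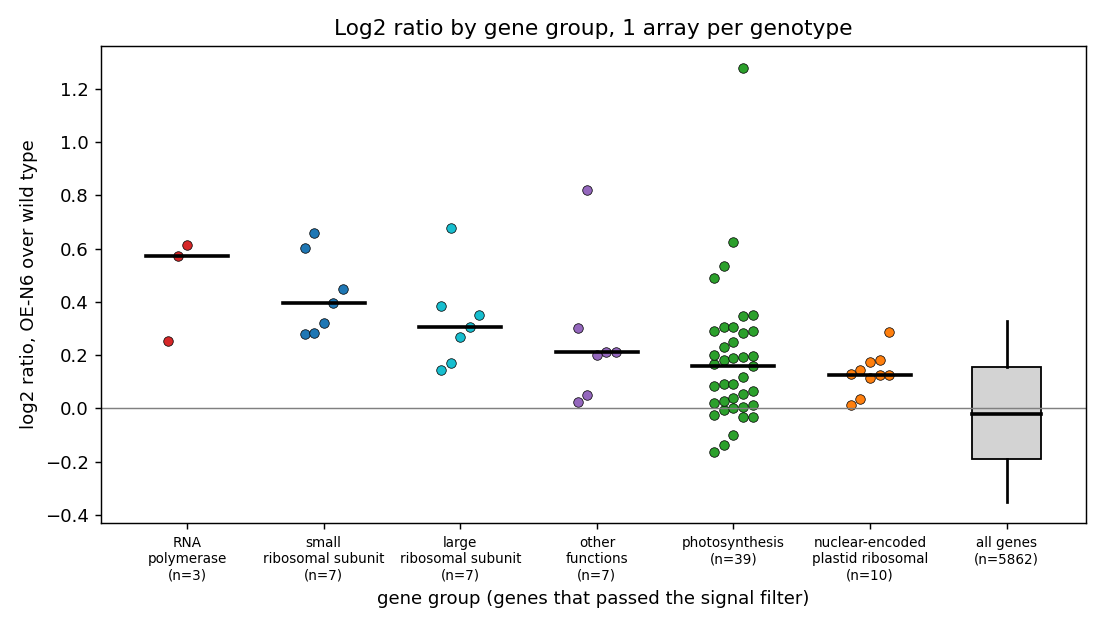
Log2 ratio of OE-N6 over wild type for each gene that passed the filter (points), with the median of each group (bar); the grey box spans the 25th to 75th percentile of all 5862 genes and its whiskers the 10th to 90th. Medians step down from the polymerase (0.57) through the small (0.39) and large (0.31) subunits to other functions (0.21) and photosynthesis (0.16). Each single step is smaller than 0.19, the median difference between probe sets of 1 gene.

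Set beside the photosynthesis genes of the same genome, the gene-expression genes had the higher ratios. The 17 polymerase and ribosome genes that passed had a median of 0.35 and all lay above 0 under each of the 3 other scalings as well. The 39 photosynthesis genes that passed had a median of 0.16, with 32 above 0 as deposited, 26 under quantile and 24 under loess scaling. Under those scalings the photosynthesis median was 0.08 in both, and that of the 17 genes 0.30 in both. A log2 ratio of at least 0.32 was found in 10 of the 17 and 6 of the 39, which is 58.8% and 15.4%, beside 10.4% of all genes. A few photosynthesis genes had ratios as high as the gene-expression genes or higher. The NDH complex gene ndhE had a log2 ratio of 1.28, and the photosystem II core gene psbB 0.62. At the low end lay rbcL, which encodes the large subunit of Rubisco, at -0.16 and the ATP synthase gene atpI at -0.14. The single-gene rule left out probe sets for genes present in 2 copies. Outside the photosynthesis classes 5 of these passed the filter, with a median of 0.16 and 3 above 0. With 1 array per genotype the difference between the classes has no test.

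Brightness of the probe set differed between the classes and moved with the ratio. The median of the mean signals was 3075 for the 17 polymerase and ribosome genes, 6588 for other functions and 7687 for photosynthesis genes. Over the 24 genes the log2 ratio and log2 mean signal had a Pearson's r of -0.63 and a Spearman's rho of -0.56, as a description across genes of the same 2 arrays. Over all genes with a RefSeq match that passed, r was 0.08. Gene length showed little relation over the 24 genes (r = 0.11).

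Within bands of signal the order of the classes was kept between gene-expression and photosynthesis genes. At mean signals from 192 to 1000, the 4 polymerase and ribosome genes had a median log2 ratio of 0.53, the 6 photosynthesis genes 0.32 and nuclear genes -0.04. From 1000 to 5000 the medians were 0.39 over 6 genes, 0.12 over 10 and 0.00. From 5000 upward they were 0.28 over 7 genes, 0.09 over 23 and 0.08 over 175 nuclear genes. The gaps between gene-expression and photosynthesis genes were thus 0.21, 0.27 and 0.19, with few genes behind each value. The dim genes ycf3, rpl20, rps16 and rps15 made up 4 of the 5 genes in the lowest band, and rpoC2 was the fifth. The part of brightness in the class medians was not tested further.

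**Figure D3:**
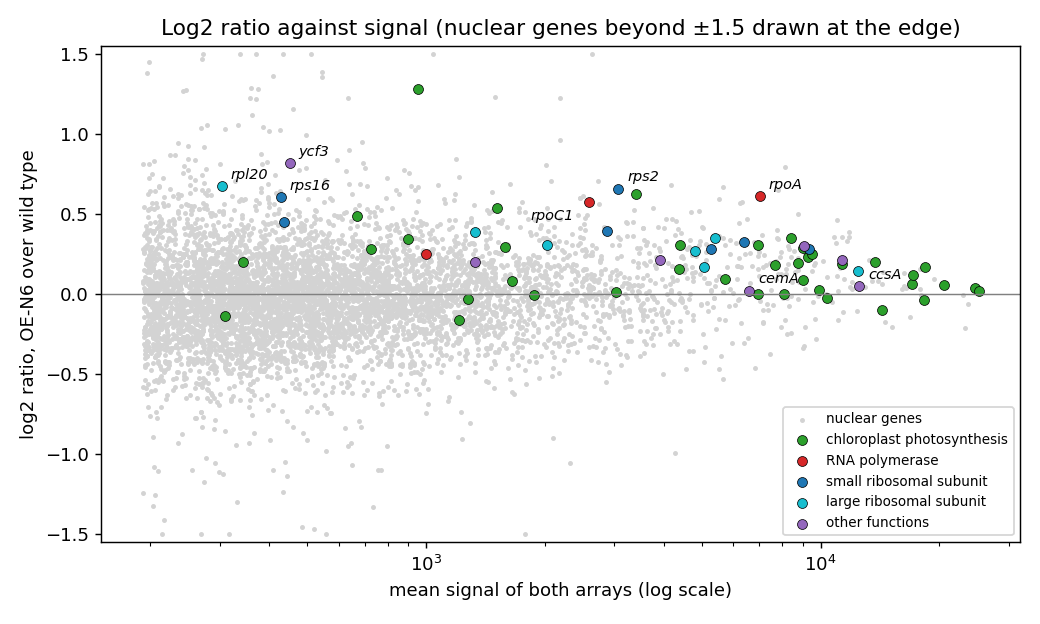
Log2 ratio of OE-N6 over wild type against the mean signal of both arrays (log axis), with nuclear genes in grey and chloroplast genes coloured by class. Dim genes such as ycf3 and rpl20 lie high, cemA and ccsA lie near 0 at high signal, and rpoA at 0.61 is high for a bright gene.

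Genes known to be transcribed together did not share one ratio. The range from the lowest to the highest gene of a cluster was set against pairs of probe sets of 1 gene. Only the psaA operon (range 0.06) stayed under the median of such pairs, 0.19. The 90th percentile of the pairs was 0.57. Only the cluster of rps2 with ATP synthase genes (range 0.80) and that of rps15 with ndhD (1.29) went past 0.57. A range widens with the number of genes, so clusters and pairs are not strictly alike. Another cluster leads from rps19 to rpoA, a run of ribosomal protein genes that ends with the polymerase subunit. In the direction of transcription its measured genes had log2 ratios of 0.28 (rps19), 0.17 (rpl22), 0.32 (rps3), 0.31 (rpl16), 0.39 (rpl14), 0.35 (rpl36) and 0.61 (rpoA). The last gene, rpoA, was the highest and the 6 before it spanned 0.17 to 0.39. Where a gene of the set neighbours ATP synthase genes the contrast was wider: rps2 stood at 0.66, while atpI, next to it, stood at -0.14 and the other 3 measured ATP synthase genes of the cluster between 0.06 and 0.23.

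The widest spread was in the cluster from rps15 to ndhD, where 8 genes ran from psaC at -0.01 to ndhE at 1.28. There rps15 had 0.45, its neighbour ndhH 0.49 and the other 4 NDH genes 0.12 to 0.20. In the smaller clusters the ratios also differed, by less than 0.57. The partners rpl33 and rps18 had 0.14 and 0.39, and rpl20 and clpP had 0.68 and 0.21. In the accD cluster, accD and ycf4 were nearly equal at 0.20 and 0.21, cemA was at 0.02, and the photosynthesis genes psaI and petA were at 0.31 and 0.29. The neighbours rpl32 and ccsA had 0.27 and 0.05. In the psaA operon, psaA and psaB had 0.03 and -0.03, and rps14 was too dim to compare.

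**Figure D4:**
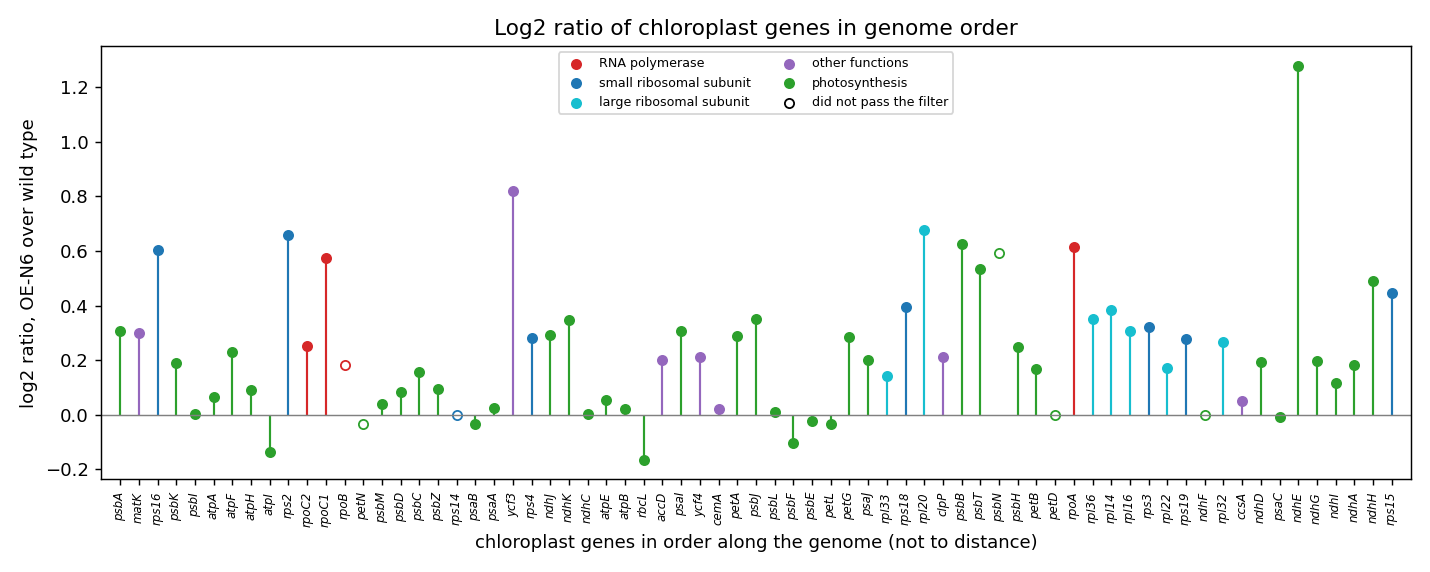
Log2 ratio of OE-N6 over wild type for the 69 chloroplast genes in genome order, coloured by class; open points did not pass the filter. High values are spread along the genome, at rps16, rps2, ycf3, rpl20, psbB, rpoA and ndhE, with lower neighbours between them.

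Nuclear partners of these genes had a lower median than the chloroplast genes. Few are covered, since 17 of 93 listed loci had a probe set of their own and 16 passed the filter. None of the 16 had a log2 ratio of 0.32 or more, or of -0.32 or less, beside 10.4% and 12.1% of all genes. With so few genes, no result is read from that count. Their median log2 ratio was 0.13, and 0.06 under quantile and under loess scaling. The 10 nuclear genes for plastid ribosomal proteins all lay above 0 in the deposited signals, and 8 of 10 did under quantile and under loess scaling. As deposited, 46.8% of all genes lay above 0. Of nuclear genes with a mean signal of 5000 or more, 65.1% did, with a median of 0.08. The median of the 10 was 0.13, and 0.06 and 0.07 under quantile and loess scaling. It was 0.34 as deposited for the 14 chloroplast-encoded ribosomal protein genes. The 10 were brighter, with a median of the mean signals of 7529 against 3940 for the 14. The part of brightness in this difference was not tested.

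Within the small-subunit list, 3 loci passed: AT5G24490 at 0.01, AT1G64510 at 0.03 and AT3G13120 at 0.13. Of 7 large-subunit loci, AT5G47190 was highest at 0.29 (3519 and 4292), followed by AT4G01310 at 0.18. The lowest were AT2G43030 at 0.11 and AT4G17560 at 0.13. Among 5 nuclear Clp protease loci, partners of clpP, 3 lay above 0 and 2 below, with AT4G12060 at 0.18, CLPP4 at 0.11, AT1G68660 at -0.23 and AT1G09130 at -0.29. The splicing factor CAF1 had 0.13. AT5G15700, from the list of nuclear-encoded organelle polymerases, had signals under the floor on both arrays. No locus of the sigma factor list, the polymerase-associated proteins or the carboxylase subunits could be named from a single-gene probe set, so their signal is not analysed here.

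Green-tissue and mitochondrial genes were read beside the chloroplast values. Of 9 listed nuclear genes of green tissue 4 were measured, with a median of 0.04: PSAN at 0.16, PRK at 0.04, RCA at 0.03 and LHCB4.2 at -0.18. Of 16 mitochondrion-encoded genes 4 passed the filter, with a median of -0.17, and 1 of them lay above 0. The cytochrome oxidase subunit gene cox1 had a log2 ratio of -0.51, ccmFC -0.22, nad4 -0.11 and ccmFN1 0.51. Their relation to the chloroplast values was not tested.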

How the data were processed

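Total RNA of whole seedlings of each genotype was read on 1 array. The authors deposited a linear signal intensity for every probe set, made with MAS5 according to the submitters' processing notes, which name no version or settings. The mean after leaving out the top and bottom 2% of the deposited intensity values was 500.0 on both arrays, so a change shared by most transcripts would not show.

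Names came from the platform annotation and, by gene identifier, the RefSeq gene table of TAIR10.1, used for names and gene order only. The brightest probe set stood for a gene that had several. Genes passed the filter at a mean signal of 192 or more, the median of non-control probe sets. Signals under 111, the 40th percentile, were raised to that floor before log2 ratios were taken. Mitochondrial genes were matched by symbol. With 1 array per genotype there is no test, p-value or replicate SD, and precision is limited by the number of arrays. The procedure was tested on simulated data, with changes larger than any found among the described genes. That test does not cover differences as small as those reported here.

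Every gene of the described classes was named, with up to 2 highest and 2 lowest members of each nuclear list and of the chloroplast photosynthesis genes, cluster neighbours, the target, and the mitochondrial genes past the filter. Members and lists were chosen with earlier results of these data known, and the signal bands and the 0.19 yardstick after the values were seen. The alternatives used 3 scalings (median, quantile, loess), 2 filters, 2 floors and the mean over probe sets. Python 3.11.15 was used with numpy 2.4.6, pandas 2.3.3, statsmodels 0.14.6 and matplotlib 3.10.9.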

Additional observations from a re-analysis of the deposited data

How the results depend on the processing

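Each of the 8 alternatives (3 scalings, 2 filters, 2 floors and the mean over probe sets) was set against the reported values, and a median or gene value was taken as moved when it shifted by 0.19 or more. The 7 medians stayed within that distance under all 8. The polymerase median ranged from 0.41 to 0.58, the small subunit from 0.32 to 0.40, the large subunit from 0.28 to 0.31, the other functions from 0.17 to 0.21, the photosynthesis genes from 0.08 to 0.16, all members from 0.26 to 0.31 and the nuclear partners from 0.06 to 0.13. Of 188 single-gene values 184 kept their direction and size. The exceptions were cemA, at -0.0615 under quantile and -0.0381 under loess scaling, and ccsA, at -0.0322 and -0.0297. Most of the 188 could not change. Each gene had a single probe set and both signals above the floor, so filters, floors and the mean over probe sets left its value as it was. Median centring moved all genes by the same small amount. Under quantile and under loess scaling, 22 genes kept their direction and 2 turned. A filter at the 75th percentile removed 4 members, the dimmest that had passed, and left 7 with a log2 ratio of at least 0.32 and 2 at least 1.5-fold higher, beside 9.77% and 1.83% of all genes. Those counts were 9 and 4 under quantile and under loess scaling, beside 11.2% and 2.61% of all genes, and 11.5% and 2.69%. No paired analysis was possible because there is 1 array for each genotype. Low signal leaves rpoB with a bound only and rps14 with no ratio.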

Other observations

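Chloroplast genes in the large repeat of the genome exist in a pair of copies, and their probe sets carry 2 annotation entries each, so the single-gene rule left them out. Outside the photosynthesis classes 6 such probe sets were found, of which 5 passed the signal filter. Their log2 ratios ran from -0.14 to 0.21 with a median of 0.16, and 3 of the 5 lay above 0. The brightest went from a signal of 16235 in the wild type to 18748 in OE-N6 and had the highest ratio of the 5. These probe sets share annotation entries and were not counted with the genes above.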
